A study of Arabidopsis thaliana with 24 samples.

Results

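The 10 genes described here encode Arabidopsis UDP-glycosyltransferases (UGTs) of 5 subfamilies that act on small phenolic compounds or related hormones: UGT75B1 (AT1G05560), UGT74E2 (AT1G05680), UGT74F1 (AT2G43840), UGT74F2 (AT2G43820), UGT73B1 (AT4G34138), UGT73B2 (AT4G34135), UGT73B3 (AT4G34131), UGT73B4 (AT2G15490), UGT73B5 (AT2G15480) and UGT71B1 (AT3G21750). They were chosen by name, with differences between salicylhydroxamic acid (SHAM) and water in these same libraries already known. Their SHAM against water values are therefore a description, without a test, and nothing is supported with them. Of the 10 genes, 9 are among the 16183 genes of the count table used here, and UGT74F1 is not analysed.

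The study exposed seedlings of wild-type Arabidopsis thaliana, ecotype Columbia-0, to SHAM or water and then separated roots from shoots. All seedlings were 7 d old, grown at 21 °C with days of 16 h light (8 h dark) and 1% sucrose in the medium. The 8 groups are shoots and roots kept in SHAM for 1, 2 or 3 h and shoots and roots kept in water for 1 h, with 3 libraries each and 24 in all. Transcripts were counted from their 3' ends by MARS-seq, so a count stands for a tag near the end of a transcript and levels are not compared between genes. SHAM, a hydroxamic acid derived from salicylate, is used as an inhibitor of the mitochondrial alternative oxidase. The treatment label gives 1 mM SHAM, while the protocol text has SHAM at 0.1 mM and also a solution of 1 mM SHAM in 30% polyethylene glycol (PEG), so the dose and the presence of PEG cannot be settled from the sources used here. Water was sampled only at 1 h, and a difference at 2 h or 3 h therefore also holds the longer time in solution. Each biological replicate pooled 30 to 50 seedlings, so the spread between libraries is a spread between pools. In such whole organs, fewer cells of a type and less RNA per cell cannot be told apart.

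UGTs move a sugar, mostly glucose, from a UDP-sugar to a small acceptor, which makes the product more soluble and often less active. In plants, the glucosides of phenolics and of foreign compounds can then be malonylated and moved into the vacuole. UGT74F1 and UGT74F2 glucosylate salicylate, UGT74E2 acts on the auxin indole-3-butyric acid, UGT75B1 glucosylates benzoates such as p-aminobenzoate, and genes of the UGT73B group respond to salicylate and to pathogens. TGA transcription factors bind elements with the core TGACG and are known to activate detoxification genes of this kind.

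The promoters of 6 of the genes are shown because TGACG was found in UGT73B1, UGT73B3, UGT73B4 and UGT73B5, and because UGT75B1 had the highest root fold change of the genes with more than 3 counts in each root group while UGT71B1 was the gene that was lower with SHAM in shoots. Each line gives the 250 bases before the gene start of the RefSeq annotation of TAIR10.1, read by locus tag and printed 5' to 3' on the gene's strand. The build used for the deposited files is not given in the sources used here. Capitals mark TGACG on either strand, which reads CGTCA on the reverse strand.
UGT75B1: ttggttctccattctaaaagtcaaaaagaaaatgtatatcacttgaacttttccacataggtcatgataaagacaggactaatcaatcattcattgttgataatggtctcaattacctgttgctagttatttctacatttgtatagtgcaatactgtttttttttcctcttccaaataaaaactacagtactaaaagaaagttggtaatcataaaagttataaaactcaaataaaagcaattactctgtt
UGT73B1: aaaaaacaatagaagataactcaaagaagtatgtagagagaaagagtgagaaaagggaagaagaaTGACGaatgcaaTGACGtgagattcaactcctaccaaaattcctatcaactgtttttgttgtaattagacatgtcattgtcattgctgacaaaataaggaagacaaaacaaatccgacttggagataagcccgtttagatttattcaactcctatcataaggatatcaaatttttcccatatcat
UGT73B3: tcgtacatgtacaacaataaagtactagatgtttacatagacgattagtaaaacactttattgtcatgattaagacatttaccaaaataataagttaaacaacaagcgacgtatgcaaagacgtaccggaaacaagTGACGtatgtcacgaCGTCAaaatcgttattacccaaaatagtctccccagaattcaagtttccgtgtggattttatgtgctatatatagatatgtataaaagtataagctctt
UGT73B4: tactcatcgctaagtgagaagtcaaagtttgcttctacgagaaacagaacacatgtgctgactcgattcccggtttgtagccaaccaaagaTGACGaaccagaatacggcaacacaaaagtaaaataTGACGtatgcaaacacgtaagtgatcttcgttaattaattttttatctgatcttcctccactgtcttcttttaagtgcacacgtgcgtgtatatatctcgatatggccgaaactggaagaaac
UGT73B5: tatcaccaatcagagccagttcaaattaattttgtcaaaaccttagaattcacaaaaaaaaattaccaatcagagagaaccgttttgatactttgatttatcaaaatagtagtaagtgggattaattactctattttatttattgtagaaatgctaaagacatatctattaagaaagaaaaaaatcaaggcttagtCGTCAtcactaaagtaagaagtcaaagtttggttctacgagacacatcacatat
UGT71B1: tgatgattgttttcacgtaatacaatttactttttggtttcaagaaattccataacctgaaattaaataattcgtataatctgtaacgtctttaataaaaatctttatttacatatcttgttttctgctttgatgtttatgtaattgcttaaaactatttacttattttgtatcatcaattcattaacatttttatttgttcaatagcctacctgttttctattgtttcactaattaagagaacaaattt

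TGACG was present on 1 strand or the other in 4 of the 10 promoters (40%), against 18.6% of the 27443 promoters of protein-coding genes and 16.7% of the promoters of the 54 other UGT genes. All 4 belong to the UGT73B group, with 2 copies each in UGT73B1, UGT73B3 and UGT73B4 and 1 copy in UGT73B5. UGT73B2 lies in tandem with UGT73B1 and UGT73B3 on chromosome 4 and had no copy in this window. The core TTGAC, which WRKY factors bind, was found on either strand in 7 of 10 promoters (70%, against 44.9% of all), and ACGTG, the core of abscisic acid and bZIP elements, in 4 of 10 (40%, against 22.9%). A copy of TGACG overlapped ACGTG in UGT73B1 and another overlapped TTGAC in UGT73B3. The mitochondrial dysfunction motif (MDM), searched on both strands, matched none of the 10 windows, against 1.2% of all. When the 50 bases after the start were added, it matched UGT74E2 and 1.42% of all promoters. A match is a description of letters and not a site of binding.

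The coding ends of UGT73B4 and UGT73B5 are shown because 3' counts of this tandem pair on chromosome 2 may be shared between them. The last 90 coding bases, stop codon included, differ at 1 base, which is in capitals.
UGT73B4: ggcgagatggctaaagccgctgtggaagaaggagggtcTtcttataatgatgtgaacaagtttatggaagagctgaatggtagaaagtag
UGT73B5: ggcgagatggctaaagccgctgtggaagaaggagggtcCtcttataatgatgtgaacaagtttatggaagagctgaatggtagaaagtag

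The whole coding sequences of this pair are 90.9% identical, and an annotated transcript of UGT73B5 runs through the last exon of UGT73B4, with 255 exon bases on the same strand in common. All 251 words of 50 bases in the last 300 transcript bases of UGT73B4 also occur in UGT73B5. The split of counts between these genes is therefore uncertain. The sharing did not run the other way. Of the 251 such words in the last 300 transcript bases of UGT73B5, 0 occur in UGT73B4. These last 300 bases of the pair are 48.9% identical. No other of the 10 genes shared such a word with another of them. UGT73B2 and UGT73B3 are 88.7% identical in their coding sequence but 46.8% in their last 300 transcript bases, and UGT74F1 and UGT74F2 are 84.1% and 44.4% identical over the same stretches. Exons of UGT73B1 and UGT73B3 overlap a gene on the other strand by 711 and 62 bases, and whether the counting used strand is not stated, so these counts may include the neighbour.

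Library totals ran from 862731 to 3622300 counts. The 8 shoot markers (such as RBCS1A and LHCB1.1) took 3.29% to 8.14% of counts in shoots and at most 0.0880% in roots, except in root SHAM 1 h replicate 1 with 0.953%. Of these markers 0 to 2 were at 0 in each root library. The 8 root markers (such as PRX44 and TIP2;2) took 0.0406% to 0.499% in roots and 0.0116% to 0.0230% in shoots, where 3 to 6 of them were at 0, so the organ labels held. Within roots the root markers took 0.380% to 0.499% of counts in water and 0.0406% to 0.117% with SHAM. Within shoots the shoot markers took 3.29% to 4.38% in water. With SHAM they took 7.47% to 8.14% (1 h), 6.50% to 6.92% (2 h) and 3.31% to 4.21% (3 h). Both marker sets thus moved with treatment, and their part in the values below was not tested. Root SHAM 2 h replicate 3 and root SHAM 3 h replicate 1 stood apart from the other libraries of their groups for several of the genes, which is given with the exposure steps. Levels below are counts scaled to the library total (counts-per-million, CPM). Fold changes are log2 values, and the number after ± is their standard error.

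Together the 9 genes took a summed level of 303 ± 34.8 CPM in water shoots and 1224 ± 439, 1291 ± 303 and 1944 ± 199.5 CPM in shoots after 1, 2 and 3 h of SHAM (SD, n = 3). In roots the sum was 312 ± 16.0 CPM in water and 2572 ± 625, 3126 ± 573 and 3699 ± 930.1 CPM after 1, 2 and 3 h. The lowest SHAM library of either organ was above the highest water library. The plot of each gene's level by organ and exposure shows that this sum hides differing patterns, which are described next.

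**Figure D1:**
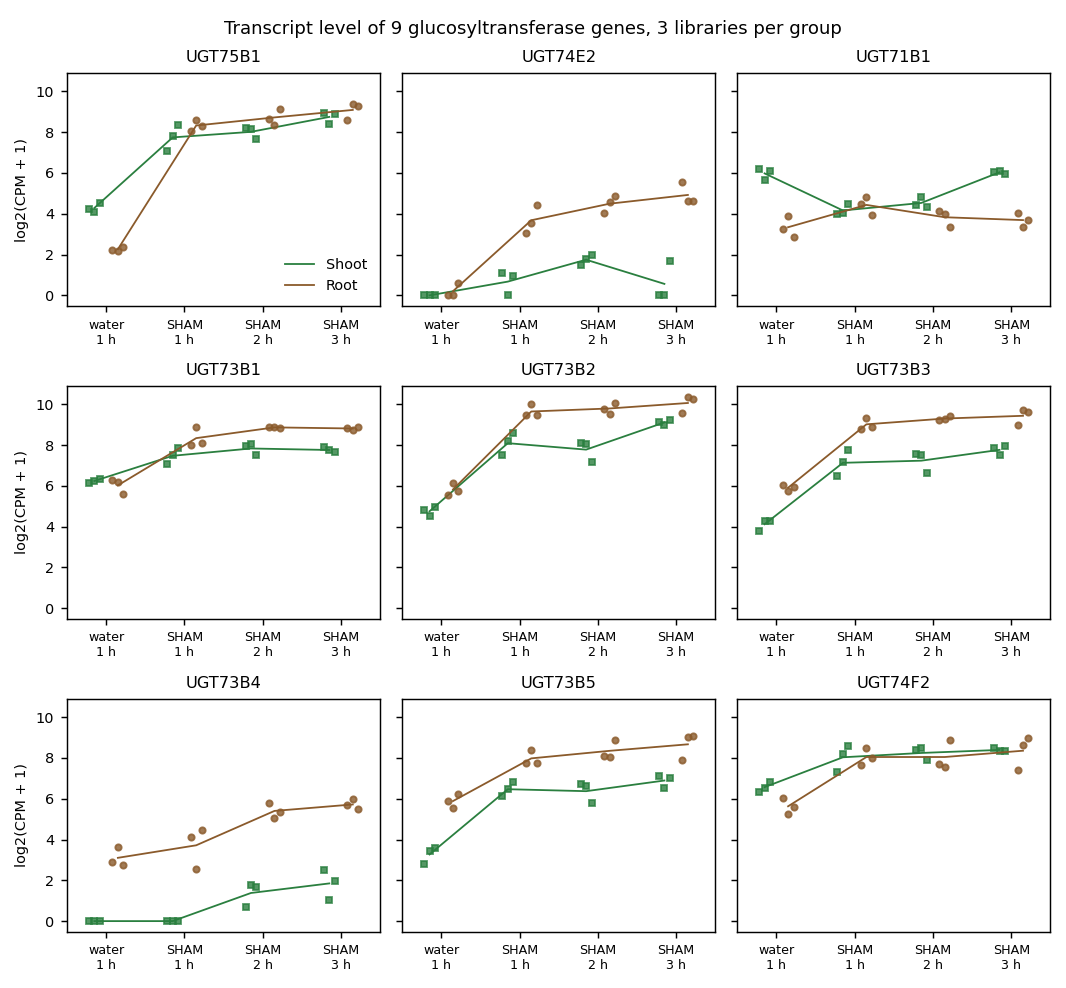
Level of each of the 9 genes on the scale log2(CPM + 1) (vertical axis) in water and after 1, 2 and 3 h of SHAM (horizontal axis); points are libraries (green squares shoots, brown circles roots) and lines join the means of 3 libraries. UGT75B1 stands at 3.48 to 4.25 CPM in water roots and at 267 CPM or more in every SHAM root library, while UGT71B1 in shoots is low at 1 h and 2 h and back at its water level at 3 h.

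Without SHAM, the genes differed between organs. They were not chosen on this difference, but earlier results of these data were known. The water libraries are also the baseline of the SHAM against water values, so the adjusted p here are not free of the choice. Of 9 tested, 4 were higher in water shoots than in water roots and 2 were lower, while 25.1% of the 11704 genes tested were higher and 25.1% lower (edgeR's quasi-likelihood test with Benjamini-Hochberg adjustment over all genes). UGT71B1, of a subfamily that acts on phenolics and abscisic acid, had 71.2, 49.0 and 68.5 CPM in shoots and 8.46, 13.9 and 6.37 CPM in roots, without overlap. Its difference was 3.85 ± 0.33 (edgeR adjusted p 1.22e-09). UGT75B1 had 17.8, 16.1 and 22.1 CPM in shoots and 3.70, 3.48 and 4.25 CPM in roots, also without overlap, and a difference of 3.32 ± 0.41 (edgeR adjusted p 3.43e-07). UGT74F2, which makes the glucose ester of salicylate, was higher in shoots by 1.99 ± 0.40 (edgeR adjusted p 0.000242), with 79.4 to 114 CPM in shoots and 37.1 to 65.6 CPM in roots.

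Of the UGT73B genes, UGT73B5 and UGT73B4 were called lower in shoots, UGT73B1 was called higher, and UGT73B2 and UGT73B3 were not called. UGT73B5 had 5.93, 9.67 and 11.0 CPM in water shoots and 58.7, 45.2 and 73.8 CPM in water roots, and was lower in shoots by -1.63 ± 0.38 (edgeR adjusted p 0.00102). UGT73B4 had no count in any of the 3 water shoot libraries and 33 counts in the water roots, so it was at least 15.5-fold lower in shoots, taking a floor of 3 counts over the group. UGT73B1 was called higher in shoots (1.27 ± 0.27, edgeR adjusted p 0.000356), although its CPM overlapped at 70.5 to 79.2 in shoots and 47.3 to 76.1 in roots. That call rests on the scaling between organs: with library size alone, which moves the median of all genes to -1.19 from -0.12 on the log2 scale, its difference was 0.18 (edgeR adjusted p 0.526). UGT73B2 (-0.02 ± 0.31, edgeR adjusted p 0.967) and UGT73B3 (-0.75 ± 0.32, edgeR adjusted p 0.0572) were not called, but with library size alone both were called lower in shoots, at -1.10 and -1.83. UGT73B3 was also called lower by DESeq2 (-0.94, adjusted p 0.0144, which is also its value in the authors' deposited table), by edgeR with median-ratio size factors (-0.94, edgeR adjusted p 0.0125), with only the libraries compared (-0.75, 0.023) and without any 1 of 9 libraries (root water replicate 2, root SHAM 1 h replicates 1 and 2, shoot SHAM 1 h replicate 1, root SHAM 2 h replicates 2 and 3, root SHAM 3 h replicates 1, 2 and 3). UGT74E2 had 0 counts in water shoots and 1 count in water roots, too few for a fold.

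With SHAM, 8 of the 9 genes tested in roots were called higher at each exposure, beside 7.01%, 8.6% and 9.99% of all 10642 genes at 1, 2 and 3 h. None was called lower by edgeR, at an unadjusted p under 0.05 or by DESeq2, beside 5.22%, 5.4% and 6.4% of all genes. The exceptions were UGT73B4 at 1 h and UGT71B1 at 2 h and 3 h. In shoots 7 of the genes passed the filter on low counts, and UGT73B4 and UGT74E2 did not. Of the 7, 6 were called higher at 1, 2 and 3 h, beside 9.36%, 8.38% and 6.31% of all 8570 genes, and UGT71B1 alone was called lower at 1 h and 2 h, beside 7.49% and 7.44% (2.68% at 3 h, when it was not called). The median log2 fold change was 3.38, 3.17 and 3.72 over the 7 genes in shoots and 2.68, 3.16 and 3.21 over the 9 genes in roots, against 0.05, -0.00 and 0.00 over all genes in shoots and 0.04, -0.08 and -0.07 in roots. The choice of the genes used these same contrasts, and nothing is read from these shares. For UGT71B1 the name "induced" holds in roots at 1 h only and goes against the shoot values.

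UGT75B1, a glucosyltransferase of benzoates that was first described from the forming cell plate, had the highest fold change of the 8 genes with more than 3 counts in each root group. Its shoot libraries held 17.8, 16.1 and 22.1 CPM in water, 134, 221 and 327 CPM after 1 h of SHAM, 297, 287 and 201 CPM after 2 h and 495, 335 and 475 CPM after 3 h. Its root libraries held 3.70, 3.48 and 4.25 CPM in water, 267, 389 and 315 CPM after 1 h of SHAM, 405, 325 and 570.2 CPM after 2 h and 385, 672 and 623 CPM after 3 h. The water and SHAM ranges did not overlap in either organ. Roots held less of it than shoots in water. With SHAM the root CPM overlapped the shoot CPM at 1 h and 3 h and lay above it at 2 h. Since CPM is scaled by the library total alone, the order of the organs with SHAM depends on that scaling, and it was not tested. In shoots the log2 fold change was 3.83 ± 0.31 at 1 h, 3.86 ± 0.31 at 2 h and 4.56 ± 0.32 at 3 h. In roots it was 6.61 ± 0.38 at 1 h, 7.12 ± 0.39 at 2 h and 7.51 ± 0.39 at 3 h.

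UGT74E2, which glucosylates indole-3-butyric acid and is known as a responder to hydrogen peroxide, was near 0 without SHAM. Its shoot libraries held 0, 0 and 0 CPM in water, 1.13, 0 and 0.911 CPM after 1 h of SHAM, 1.82, 2.44 and 2.91 CPM after 2 h and 0, 0 and 2.22 CPM after 3 h. Its root libraries held 0, 0 and 0.531 CPM in water, 7.22, 10.8 and 20.8 CPM after 1 h of SHAM, 15.5, 22.6 and 28.4 CPM after 2 h and 45.4, 23.5 and 23.5 CPM after 3 h. With 1 count in water roots and 95, 116 and 183 counts after 1, 2 and 3 h of SHAM, it stood at 57.5 times its water level at 1 h (95% counting interval 10.1 to 2294) and at 130.4 times at 3 h (23.1 to 5179). In shoots 16 counts at 2 h against 0 in water made it at least 4.88-fold higher, and 3 counts at 1 h and at 3 h were at the floor. Each SHAM root library thus lay above each water root library, while its shoot groups overlapped at 1 h and at 3 h. These intervals and floors cover counting error only.

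UGT74F2 had 159 to 377 CPM in the 9 SHAM shoot libraries and 79.4 to 114 CPM in water shoots. In roots it had 171 to 509.5 CPM with SHAM and 37.1 to 65.6 CPM in water. SHAM and water did not overlap, but the root SHAM libraries were widely spread, with 206, 186 and 474 CPM at 2 h and 171, 396 and 509.5 CPM at 3 h. Its log2 fold change was 1.78 ± 0.26 at 1 h, 1.75 ± 0.26 at 2 h and 1.83 ± 0.26 at 3 h in shoots, and 2.68 ± 0.45 at 1 h, 2.86 ± 0.45 at 2 h and 3.19 ± 0.46 at 3 h in roots.

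The chromosome 4 tandem of UGT73B1, UGT73B2 and UGT73B3 was higher with SHAM in both organs, by unequal amounts. UGT73B2, known as a flavonoid glucosyltransferase, had shoot libraries at 26.7, 21.9 and 29.8 CPM in water, 183, 289 and 379 CPM after 1 h of SHAM, 273, 262 and 145 CPM after 2 h and 558, 504 and 595 CPM after 3 h. Its root libraries held 46.5, 69.5 and 53.1 CPM in water, 698, 1037 and 706 CPM after 1 h of SHAM, 882, 745 and 1058 CPM after 2 h and 762, 1323 and 1207 CPM after 3 h. Its SHAM libraries were all above the water libraries of their organ, and its highest shoot values were those of 3 h. UGT73B2's log2 fold change was 3.68 ± 0.28 at 1 h, 3.17 ± 0.28 at 2 h and 4.41 ± 0.29 at 3 h in shoots, and 4.10 ± 0.31 at 1 h, 4.32 ± 0.31 at 2 h and 4.64 ± 0.31 at 3 h in roots.

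UGT73B3, a gene needed for full resistance to Pseudomonas in Arabidopsis, had 88.0 to 245 CPM in SHAM shoots and 12.6 to 18.7 CPM in water shoots. In roots it had 445 to 834 CPM with SHAM and 53.3 to 64.0 CPM in water. There was no overlap in either organ, and its log2 fold change was 3.38 ± 0.33 at 1 h, 3.27 ± 0.33 at 2 h and 3.72 ± 0.33 at 3 h in shoots and 3.39 ± 0.26 at 1 h, 3.73 ± 0.26 at 2 h and 3.93 ± 0.27 at 3 h in roots.

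UGT73B1, which glucosylates abscisic acid in vitro, had the smallest fold changes of the 3. Its shoot libraries held 70.5, 74.1 and 79.2 CPM in water, 132, 182 and 229 CPM after 1 h of SHAM, 244, 259.9 and 184 CPM after 2 h and 237, 212 and 199 CPM after 3 h. Its root libraries held 76.1, 73.0 and 47.3 CPM in water, 259, 475 and 272 CPM after 1 h of SHAM, 471, 478 and 448 CPM after 2 h and 456, 426 and 464 CPM after 3 h. All SHAM libraries lay above the water libraries of their organ. From 2 h on the root libraries lay within a narrow band of CPM that was above every shoot library. CPM is scaled by the library total alone, so this order of the organs depends on that scaling, and it was not tested. Its log2 fold change was 1.52 ± 0.20 at 1 h, 1.68 ± 0.20 at 2 h and 1.54 ± 0.20 at 3 h in shoots, and 2.61 ± 0.29 at 1 h, 3.16 ± 0.29 at 2 h and 3.14 ± 0.29 at 3 h in roots.

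The unequal changes show as a shift of balance within a library, which needs no scaling between libraries. The ratio of UGT73B2 counts to UGT73B1 counts was 0.296 to 0.379 in water shoots and 1.38 to 1.65, 0.787 to 1.12 and 2.35 to 2.99 in shoots after 1, 2 and 3 h of SHAM. In roots the same ratio was 0.611 to 1.12 in water and 2.18 to 2.69, 1.56 to 2.36 and 1.67 to 3.11 after 1, 2 and 3 h. Every SHAM library was thus above every water library of its organ. The ratio of UGT73B2 to UGT73B3 did not separate in this way in shoots, with 1.17 to 2.12 in water and 1.77 to 2.08, 1.44 to 1.50 and 2.42 to 2.77 after 1, 2 and 3 h of SHAM. Its 3 libraries at 3 h were above all other shoot libraries. In roots this ratio was 0.727 to 1.30 in water and 1.48 to 1.60, 1.21 to 1.56 and 1.52 to 1.59 after 1, 2 and 3 h of SHAM, so the 1 h and 3 h libraries lay above the water libraries and those of 2 h overlapped them. These ratios describe a change of balance and not the relative number of transcripts, since tags of different genes may be recovered unequally.

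**Figure D2:**
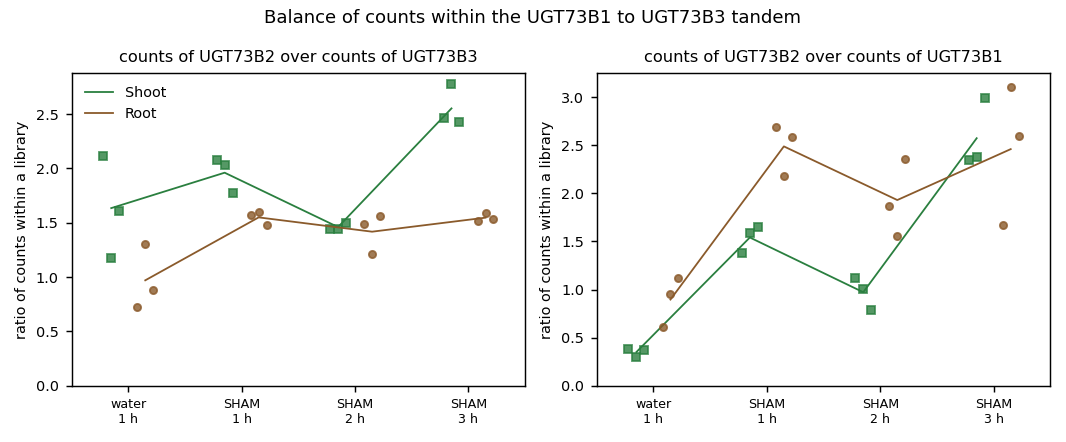
Ratio of the counts of UGT73B2 to those of UGT73B3 (left) and of UGT73B1 (right) within each library (vertical axis, linear, from 0) in water and after 1, 2 and 3 h of SHAM; points are libraries (green squares shoots, brown circles roots) and lines join group means. The UGT73B2 to UGT73B1 ratio is 0.296 to 0.379 in water shoots and 2.35 to 2.99 in shoots after 3 h of SHAM.

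The genes of the chromosome 2 pair are known to respond to salicylate and hydrogen peroxide. UGT73B5 had shoot libraries at 5.93, 9.67 and 11.0 CPM in water, 68.9, 87.8 and 110.2 CPM after 1 h of SHAM, 103, 98.2 and 53.8 CPM after 2 h and 137, 91.3 and 130.5 CPM after 3 h. Its root libraries held 58.7, 45.2 and 73.8 CPM in water, 215, 339 and 217 CPM after 1 h of SHAM, 275, 266 and 467 CPM after 2 h and 239, 523 and 533 CPM after 3 h. Water and SHAM did not overlap in either organ. Its log2 fold change was 3.53 ± 0.31 at 1 h, 3.28 ± 0.31 at 2 h and 3.73 ± 0.31 at 3 h in shoots, and 2.36 ± 0.36 at 1 h, 2.82 ± 0.37 at 2 h and 3.21 ± 0.37 at 3 h in roots.

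UGT73B4 had few counts in shoots. Its shoot libraries held 0, 0 and 0 CPM in water, 0, 0 and 0 CPM after 1 h of SHAM, 0.605, 2.44 and 2.18 CPM after 2 h and 4.73, 1.05 and 2.97 CPM after 3 h. Its root libraries held 6.34, 11.6 and 5.84 CPM in water, 16.1, 4.93 and 21.3 CPM after 1 h of SHAM, 54.1, 32.6 and 39.8 CPM after 2 h and 49.8, 63.4 and 43.6 CPM after 3 h. In roots, water and 1 h overlapped, while every library at 2 h and 3 h was above both. Its root log2 fold change was 1.11 ± 0.49 at 1 h, 2.81 ± 0.48 at 2 h and 3.15 ± 0.48 at 3 h, of which the 1 h value was not called, and without root SHAM 1 h replicate 2 it was called, at 1.56. In shoots it had no count in water or at 1 h, was at least 3.35-fold higher at 2 h (11 counts) and at least 6.25-fold higher at 3 h (20 counts). The ratio of UGT73B5 to UGT73B4 counts in roots was 3.90 to 12.6 in water and 10.2 to 68.8, 5.09 to 11.7 and 4.79 to 12.2 after 1, 2 and 3 h of SHAM. Given the shared last exon, how far counts of one gene came from the other was not tested.

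UGT71B1 was lower, not higher, with SHAM in shoots at 1 h and 2 h. Its shoot libraries held 71.2, 49.0 and 68.5 CPM in water, 14.7, 15.7 and 20.9 CPM after 1 h of SHAM, 20.6, 27.7 and 18.9 CPM after 2 h and 65.1, 67.8 and 60.8 CPM after 3 h. All SHAM libraries at 1 h and 2 h lay below all water libraries, and at 3 h the SHAM and water libraries overlapped. The shoot log2 fold change was -1.61 ± 0.22 at 1 h, -1.42 ± 0.21 at 2 h and 0.05 ± 0.20 at 3 h. The shoot markers took more of the library in the same groups (7.47% to 8.14% at 1 h and 6.50% to 6.92% at 2 h, against 3.29% to 4.38% in water), and their part in this pattern was not tested.

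In roots UGT71B1 held 8.46, 13.9 and 6.37 CPM in water, 21.7, 27.7 and 14.5 CPM after 1 h of SHAM, 16.9, 14.9 and 9.16 CPM after 2 h and 15.4, 9.05 and 12.05 CPM after 3 h. The 1 h libraries lay above the water libraries, and those of 2 h and 3 h overlapped them. Its root log2 fold change was 1.47 ± 0.41 at 1 h, 0.88 ± 0.42 at 2 h and 0.75 ± 0.42 at 3 h, of which the 1 h value was called. That call ended with library size alone, with only the compared libraries in the fit, and without water replicate 1, water replicate 3 or SHAM 1 h replicate 2. It held without SHAM 1 h replicate 1, the library with 0.953% shoot markers, which had 21.7 CPM of UGT71B1.

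The steps between exposures set SHAM libraries against each other. The water libraries enter them only through the shared filter, scaling and estimate of the spread. The SHAM libraries, however, are those of the values known when the genes were chosen. The calls and edgeR adjusted p of the steps are therefore descriptions, and nothing is supported with them. In roots between 2 h and 1 h, UGT73B4 was the 1 gene of the 9 that was called, beside 2.28% of all genes called higher. It stood at 54.1, 32.6 and 39.8 CPM at 2 h and 16.1, 4.93 and 21.3 CPM at 1 h, without overlap, a difference of 1.70 ± 0.44 (edgeR adjusted p 0.0425). The call ended with library size alone (1.60, edgeR adjusted p 0.0523) and with only the libraries compared (1.71, 0.131). It was kept without water replicate 2, SHAM 1 h replicate 3 or SHAM 3 h replicate 1 and ended without any 1 of the other 9 libraries, with adjusted p between 0.0564 and 0.125.

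Between 3 h and 2 h in roots none of the 9 genes was called by edgeR or DESeq2 and none had an unadjusted p under 0.05. In all 0 of 10642 genes (0%) were called by edgeR, 0 were called by DESeq2, and 176 had an unadjusted p under 0.05. Root SHAM 2 h replicate 3 was the highest of its group for UGT75B1, UGT73B2, UGT73B3, UGT73B5, UGT74E2 and UGT74F2, and root SHAM 3 h replicate 1 was the lowest of its group for the same genes except UGT74E2. When both were left out, an alternative chosen after seeing the data, 230 of all genes were called for this step but still none of the 9. UGT74F2 then differed by 1.24 (edgeR adjusted p 0.0835) and UGT75B1 by 0.86 (0.136). The UGT73B4 call between 2 h and 1 h ended under the same alternative (1.78, edgeR adjusted p 0.0911).

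In shoots none of the 7 genes was called between 2 h and 1 h by edgeR or DESeq2 and none had an unadjusted p under 0.05, while 5.9% of all 8570 genes were called in either direction. Between 3 h and 2 h, 2 of the 7 rose, beside 4.66% of all genes called higher. UGT71B1 stood at 65.1, 67.8 and 60.8 CPM at 3 h and 20.6, 27.7 and 18.9 CPM at 2 h, a rise of 1.47 ± 0.21 (edgeR adjusted p 0.00119). UGT73B2 stood at 558, 504 and 595 CPM at 3 h and 273, 262 and 145 CPM at 2 h, a rise of 1.25 ± 0.25 (edgeR adjusted p 0.00803). Neither gene's libraries overlapped between the exposures, and both calls held in each alternative run. The 3 h libraries of UGT75B1 were also above its 2 h libraries, at 0.69 ± 0.27, but it was not called (edgeR adjusted p 0.126). In roots neither gene was called for this step, as the plot of their levels shows, and the difference between organs for this step was not tested.

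**Figure D3:**
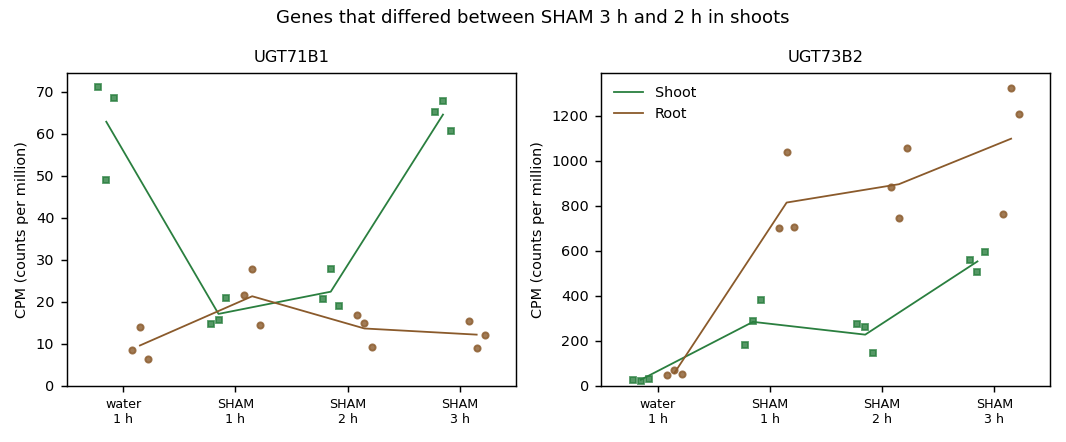
Level of UGT71B1 (left) and UGT73B2 (right) in CPM (vertical axis, linear, from 0) in water and after 1, 2 and 3 h of SHAM; points are libraries (green squares shoots, brown circles roots) and lines join the means of 3 libraries. In shoots UGT71B1 is at 60.8 to 67.8 CPM at 3 h and at 18.9 to 27.7 CPM at 2 h.

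The SHAM effect was set side by side between the organs as the shoot effect minus the root effect. This difference is built from the SHAM against water values known when the genes were chosen, so it is a description too, and no p is given for it. For UGT75B1 the effect was smaller in shoots at each exposure, with a difference of -2.88 ± 0.51 at 1 h, -3.31 ± 0.51 at 2 h and -3.01 ± 0.51 at 3 h. These values are close in size to the 3.32 by which water shoots exceeded water roots, and the organs stood closer to each other with SHAM than in water. For UGT71B1 the difference was -3.21 ± 0.44 at 1 h and -2.38 ± 0.45 at 2 h, when its fold change was below 0 in shoots and above 0 in roots, and -0.76 ± 0.44 at 3 h. The fit called each of these values but that of UGT71B1 at 3 h, and the calls held in each alternative run.

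For UGT73B1 the effect was also smaller in shoots, by -1.21 ± 0.37 at 1 h, -1.56 ± 0.37 at 2 h and -1.65 ± 0.37 at 3 h, of which the fit called the values at 2 h and 3 h. The 1 h value was called by DESeq2 (-1.07) and by edgeR without root SHAM 1 h replicate 1 or 3, shoot SHAM 1 h replicate 3 or shoot SHAM 2 h replicate 3. With library size alone the values at 2 h and 3 h were -1.21 and -1.24 and neither was called. The 2 h call also ended without root water replicate 1 or 3 or root SHAM 2 h replicate 2. The 3 h call ended without any 1 of 8 libraries: root water replicates 1 and 3, shoot water replicate 2, root SHAM 3 h replicates 1, 2 and 3 and shoot SHAM 3 h replicates 2 and 3.

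In all, the fit called 2, 3 and 2 of 9 genes at 1, 2 and 3 h, each with the shoot effect below the root effect, beside 3.96%, 2.52% and 1.29% of all 11704 genes called in that direction, and nothing is read from these shares. UGT73B2, UGT73B3, UGT73B5 and UGT74F2 were not called at any exposure. UGT73B5 had a value above 0 at 1 h, 1.06 ± 0.51, and UGT73B3 had the value nearest to 0, with -0.11 ± 0.44 at 1 h. The widest of their values below 0 was that of UGT74F2 at 3 h, -1.41 ± 0.55. For UGT73B4 and UGT74E2 the difference between organs cannot be sized, since their shoot counts were at or near 0 in water. The plot of both organs' fold changes shows these contrasts side by side.

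**Figure D4:**
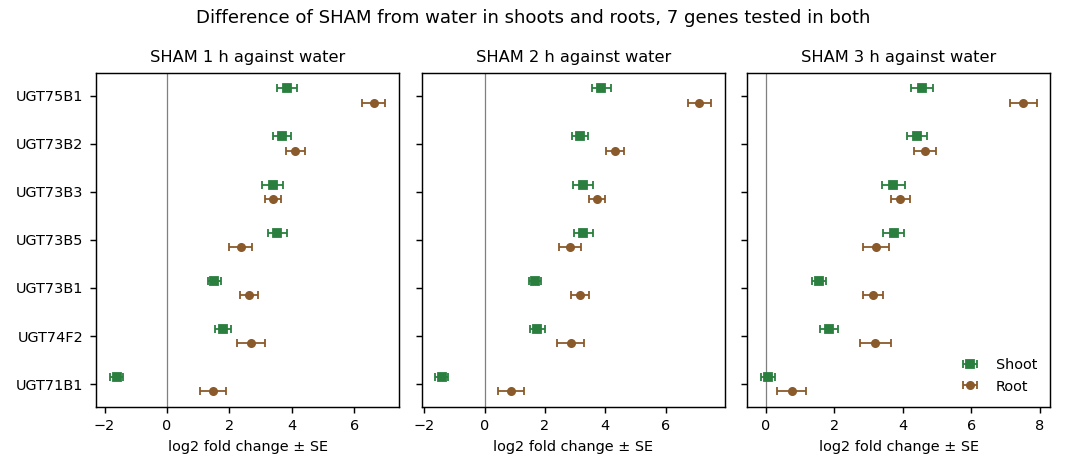
Log2 fold change of SHAM over water (horizontal axis) for the 7 genes tested in both organs, after 1, 2 and 3 h; green squares are shoots, brown circles below them are roots, and bars are the standard error. UGT75B1 is at 3.86 ± 0.31 in shoots and 7.12 ± 0.39 in roots at 2 h, and UGT73B3 at 3.27 ± 0.33 and 3.73 ± 0.26.

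Most of the genes ran together across libraries. Over the 12 libraries of an organ, which share treatment and depth, the levels of UGT75B1 and UGT73B3 on the scale log2(CPM + 1) had a Pearson r of 0.991 in shoots and 0.996 in roots. UGT75B1 and UGT71B1 had an r of -0.320 in shoots and 0.439 in roots. In roots UGT73B4 had an r of -0.0308 to UGT71B1 and of 0.579 to 0.770 to the other members. These are descriptions, since the libraries share the treatment.

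Profiles were also ranked over all 24 libraries and 6728 genes with a mean of at least 10 CPM. The described genes themselves were left out of this ranking. The profiles most like UGT75B1 were those of MO1 (AT4G15760, a monooxygenase, r = 0.971), PMAT1 (AT5G39050, r = 0.965) and AT4G01870 (r = 0.950). Those most like UGT74E2 were bHLH39 (AT3G56980, a regulator of iron uptake, r = 0.962) and the glutathione transferase genes GSTU25 (AT1G17180, r = 0.945) and GSTU19 (AT1G78380, r = 0.938). By rank, Spearman's rho was 0.875 to 0.959 for the first group and 0.908 to 0.926 for the second. UGT74E2 itself was not held to the minimum of 10 CPM. It had at most 2.91 CPM in every shoot and water library and 7.22 CPM or more in every SHAM root library. Its r thus largely sets SHAM roots against all other libraries.

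Other UGT genes were called in both directions. Of the 54 other UGT genes of the annotation, 46 are in the table. In shoots 33 of them were tested and 7, 10 and 10 were called higher and 5, 4 and 1 lower at 1, 2 and 3 h, beside 9.36%, 8.38% and 6.31% of all genes called higher and 7.49%, 7.44% and 2.68% lower. In roots 34 were tested and 8, 8 and 9 were called higher and 3, 6 and 7 lower, beside 7.01%, 8.6% and 9.99% of all genes called higher and 5.22%, 5.4% and 6.4% lower. Their median log2 fold change was 0.19, 0.07 and 0.38 in shoots and 0.60, -0.03 and 0.21 in roots. The plot of the family at 2 h places the described genes beside the others. The others are what was left of the family after the described genes were chosen with their response known, so the contrast is not a test.

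**Figure D5:**
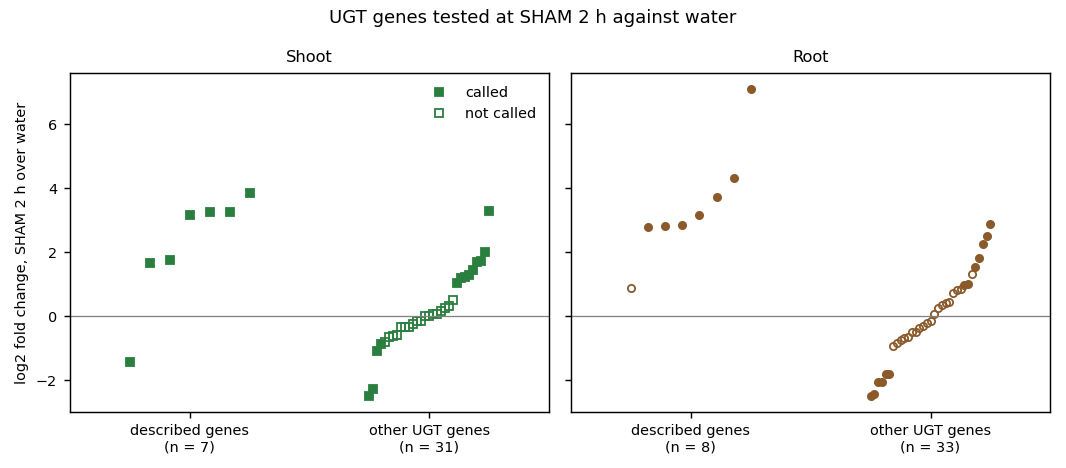
Log2 fold change of SHAM 2 h over water (vertical axis) for the described genes and for the other UGT genes of the table, in shoots (left) and roots (right); each point is a gene, filled where edgeR's adjusted p was under 0.05, and 4 genes with 3 or fewer counts in a group are left out. The described genes were chosen with these values known, and among the other UGT genes the points lie on both sides of 0.

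The other UGT genes named here are the most changed of those called at 2 h with a mean of at least 10 CPM in the organ. This rule left out UGT73C1 (3.29) and UGT74D1 (2.02), which rose more in shoots but lay below that mean. UGT85A1 (AT1G22400), which O-glucosylates the cytokinin trans-zeatin, rose in both organs. It averaged 477 ± 56.5 CPM with SHAM and 149.7 ± 10.4 CPM in water in shoots (SD, n = 3 each), a log2 fold change of 1.74 ± 0.24 (edgeR adjusted p 0.000249). In roots it averaged 61.5 ± 13.1 CPM with SHAM and 13.5 ± 0.631 CPM in water, a fold change of 2.52 ± 0.34 (edgeR adjusted p 0.0002). UGT76B1 (AT3G11340), which glucosylates isoleucic acid and salicylate, rose in roots to 89.3 ± 30.0 CPM with SHAM, against 15.8 ± 10.4 CPM in water (2.90 ± 0.44, edgeR adjusted p 0.00056). In shoots UGT76B1 had 32 counts at 2 h and none in water, at least 9.75-fold higher. UGT73D1 (AT3G53150) rose in roots by 2.26 ± 0.52 (edgeR adjusted p 0.00945). In shoots UGT84A3 (AT4G15490), which forms glucose esters of hydroxycinnamates, and UGT71B6 (AT3G21780), which glucosylates abscisic acid, rose by 1.71 ± 0.36 and 1.45 ± 0.33 (edgeR adjusted p 0.00506 and 0.00806).

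Among the other UGT genes that met this rule, those that fell most include genes of phenylpropanoids. Called genes below that mean had lower log2 fold changes. These were UGT71D1 (-2.50), UGT74B1 (-2.42) and UGT72B3 (-2.06) in roots and UGT72E2 (-2.48) and UGT85A3 (-2.26) in shoots. In roots UGT72E2 (AT5G66690) and UGT72E3 (AT5G26310), which glucosylate monolignols, fell by 2.04 ± 0.38 and 1.81 ± 0.31 on the log2 scale at 2 h (edgeR adjusted p 0.00242 and 0.00132). UGT72E2 averaged 92.7 ± 40.2 CPM with SHAM and 482 ± 49.6 CPM in water. The hydroxycinnamate gene UGT84A1 (AT4G15480) fell by 1.81 ± 0.45 in roots (edgeR adjusted p 0.0163). In shoots UGT72E1 (AT3G50740), which acts on coniferyl aldehyde, averaged 244 ± 20.8 CPM with SHAM and 538 ± 75.3 CPM in water (-1.09 ± 0.22, edgeR adjusted p 0.00465). The flavonol rhamnosyltransferase gene UGT78D1 (AT1G30530) averaged 22.4 ± 2.41 CPM with SHAM and 42.7 ± 7.28 CPM in water (-0.86 ± 0.20, edgeR adjusted p 0.00854). The genes named in this paragraph with their adjusted p were the lowest called genes whose mean reached 10 CPM. In shoots only 2 met that rule.

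Of 11 genes that supply UDP-glucose or handle the conjugates, 3 were tested in shoots and 9 in roots. In shoots 2, 1 and 1 rose at 1, 2 and 3 h, beside 9.36%, 8.38% and 6.31% of all genes called higher. In roots 1, 2 and 2 did, beside 7.01%, 8.6% and 9.99%. None was called lower, beside 7.49%, 7.44% and 2.68% of all genes in shoots and 5.22%, 5.4% and 6.4% in roots. The list was chosen with earlier results known, so these counts and the adjusted p below are descriptions, and nothing is supported with them. PMAT1, which malonylates phenolic glucosides, was called in every one of these comparisons. Its level averaged 28.7 CPM in water shoots and 76.3, 92.5 and 180.0 CPM after 1, 2 and 3 h of SHAM, with log2 fold changes of 1.64 ± 0.26 at 1 h, 1.72 ± 0.26 at 2 h and 2.64 ± 0.27 at 3 h (edgeR adjusted p 0.000702, 0.000493 and 2.24e-05). In roots it averaged 5.96 CPM in water and 84.8, 141 and 193 CPM after 1, 2 and 3 h, with log2 fold changes of 4.02 ± 0.42 at 1 h, 4.84 ± 0.43 at 2 h and 5.31 ± 0.44 at 3 h (edgeR adjusted p 2.99e-05, 3.78e-06 and 1.53e-06). Like UGT75B1, PMAT1 was higher in water shoots than in water roots (3.29 ± 0.41, edgeR adjusted p 4.08e-07). Its SHAM effect was smaller in shoots, by -2.49 ± 0.52 at 1 h, -3.18 ± 0.52 at 2 h and -2.72 ± 0.52 at 3 h. These differences share the water libraries with the value in water, so they are not separate results. The vacuolar conjugate transporter gene ABCC2 (AT2G34660) rose in roots by 1.54 ± 0.37 at 2 h (edgeR adjusted p 0.0135) and 1.23 ± 0.38 at 3 h (0.0369). UGP1 (AT3G03250), a UDP-glucose pyrophosphorylase, rose in shoots at 1 h by 1.07 ± 0.31 (edgeR adjusted p 0.0283). It was not called in shoots at 2 h (0.33 ± 0.31) or 3 h (-0.01 ± 0.31). In roots it was not called against water, with 0.75, -0.67 and -0.61 at 1, 2 and 3 h. Between 2 h and 1 h in roots it was called lower (-1.42 ± 0.32, edgeR adjusted p 0.0263).

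Of 12 regulator genes (7 TGA factors, their partner SCL14 and 4 NAC factors), 4 were tested in shoots and 8 in roots. None was called in any SHAM against water comparison by edgeR or DESeq2. At an unadjusted p under 0.05 there were 0, 0 and 1 in shoots and 1, 1 and 1 in roots at 1, 2 and 3 h. Of all genes, edgeR called 9.36%, 8.38% and 6.31% higher and 7.49%, 7.44% and 2.68% lower in shoots. The root shares were 7.01%, 8.6% and 9.99% higher and 5.22%, 5.4% and 6.4% lower. With so few regulator genes tested, nothing is read from the absence of calls. In water 4 of 8 regulator genes were lower in shoots than in roots, beside 25.1% of all 11704 genes. Among them was TGA1 (AT5G65210) at -2.35 ± 0.30 (edgeR adjusted p 5.54e-07). TGA1 was named after its value was seen, so nothing is supported with this p. A transcript level does not measure the activity of such a factor.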

How the data were processed

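MARS-seq counts 3' tags of transcripts. The authors deposited whole-number counts of 16183 genes in 24 libraries, and the highest library of every gene holds 6 counts or more. They also deposited log2 fold changes and adjusted p-values for group comparisons, with the opposite sign to the one used here. The submitters' processing notes name STAR 2.4.2a and HTSeq, with bcl2fastq, cutadapt and DESeq2, and whether molecular identifiers were collapsed is not given in the sources used here. A further 48 columns of normalized and transformed values were not used.

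Counts were tested with R 4.3.3 and edgeR 4.0.16 (with limma 3.58.1 and the data.table package, 1.17.8) by the quasi-likelihood test. Low genes were removed by filterByExpr with a count minimum of 10 and a total minimum of 15, scaling was by TMM, and p was adjusted by Benjamini-Hochberg over all genes. A call is an adjusted p under 0.05. The 12 libraries of an organ shared a fit, and all 24 were used to compare organs (14 comparisons in all). Standard errors come from the log2 fold change divided by the root of F. Alternatives were DESeq2 1.42.0, median-ratio or library-size scaling, no filter, a replicate block, only the compared or all 24 libraries, each library left out and, added after seeing the data, a pair of root libraries left out. The fit was tested on simulated data. Sequences, tables and figures used python 3.11.15, numpy 2.4.6, pandas 2.3.3, scipy 1.17.1, matplotlib 3.10.9 and biopython 1.88. Of the loci, 16082 matched a TAIR10.1 locus tag.

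The members, lists and tests were chosen with earlier results of these data known. The adjusted p of the members' organ differences, planned for print, is left out because these are built from SHAM against water values. Named genes are the 10 members and the 3 highest and 3 lowest other UGT genes at 2 h in each organ (called, mean of 10 CPM or more). They also include each called gene of the regulator and conjugate lists. The 3 profiles most like UGT75B1 and UGT74E2, members left out, are named as well. TGA1 was named after its value was seen. Binomial intervals (95%, exact) and the floor of 3 counts per group describe counting error alone.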

Additional observations from a re-analysis of the deposited data

Results flagged for a closer look

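For 3 of the genes edgeR's quasi-likelihood fit of all 24 libraries (Benjamini-Hochberg adjustment) called the shoot effect of SHAM minus its root effect. The genes were chosen with the SHAM against water values known, so these differences are descriptions and support nothing. UGT75B1 differed by -2.88 at 1 h, -3.31 at 2 h and -3.01 at 3 h (log2 scale), with the larger effect in roots each time. UGT71B1 differed by -3.21 at 1 h and -2.38 at 2 h, with lower levels under SHAM in shoots and a higher level in roots that was called at 1 h only. UGT73B1 differed by -1.56 at 2 h and -1.65 at 3 h, again with the larger effect in roots. The UGT75B1 and UGT71B1 values kept their call in each alternative run, and the UGT73B1 values did not.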

How the results depend on the processing

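For the root step from 1 h to 2 h the 1 call (UGT73B4) became 0 with library size alone, with only the libraries compared and with the pair of root libraries left out, and leaving out each library gave 0 to 1. The 2 calls of the organ difference at 3 h became 1 with library size alone, and 1 to 2 without each library. The other counts of called members stayed within 1.5 times in the alternatives run.

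Same-numbered libraries deviated together (correlation above 0.1) in 5 of 18 pairs within shoots and 6 of 18 within roots. Between organs it was 16 of 48. Pairs with different numbers did so in 17 of 36, 15 of 36 and 32 of 96. The pairs between organs mix treatments, so whether roots and shoots of the same seedlings are paired by number was not tested. With the replicate number as a block, the root step from 1 h to 2 h had 0 member calls (UGT73B4 1.71, edgeR adjusted p 0.073), and no other member call changed.

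Of member fold changes, DESeq2 added 2 calls of 116, median-ratio size factors added 1, library size alone added 2 and ended 5, and leaving out libraries added 14 and ended 23. No value that was called on either side turned its direction; values called on neither did, among them UGT74F2 for the root step from 1 h to 2 h (0.18, and -0.40 to 0.47 without each library). Library size alone moved the median of all genes to -0.20, -0.07 and -0.01 in shoots and -0.21, -0.41 and -0.43 in roots at 1, 2 and 3 h.

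Calls of other UGT genes without each library ranged over 8 to 14 (14 with all) in shoots at 2 h, and over 7 to 13 (11), 8 to 15 (14) and 9 to 17 (16) in roots at 1, 2 and 3 h. MDM matched 1 promoter over 300 bases and 0 over 250.

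Counts over all genes moved past 1.5 times as follows. With only the libraries compared they were 822 (1302) at 1 h in roots, 0 (436) for the root step to 2 h, 139 (506) for the shoot step to 2 h, and 333 (694), 619 (391) and 306 (202) for the organ differences. The block gave 307 (506) and 282 (436) for the steps to 2 h in shoots and roots, all 24 libraries gave 507 (766) for the shoot step to 3 h, and no filter and DESeq2 gave 125 and 376 (202) for the organ difference at 3 h. The pair of root libraries left out gave 217 (436) and 230 (0) for the root steps. Without each library the counts were 898 to 1567, 761 to 1685 and 417 to 954 in shoots and 510 to 1666, 822 to 2060 and 1001 to 2399 in roots, 87 to 1149 and 294 to 922 for the shoot steps, 58 to 546 and 0 to 0 for the root steps, and 308 to 1127, 195 to 458 and 79 to 238 for the organ differences.

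Limits are 3 pooled libraries per group, water at 1 h only, a dose and PEG content that cannot be settled, and few counts for UGT74E2 and UGT73B4, with an uncertain split between UGT73B4 and UGT73B5.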
